A study of Homo sapiens with 4 samples.

Results

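GAS5 (growth arrest specific transcript 5) is a long noncoding RNA (lncRNA) gene whose introns carry small nucleolar RNAs (snoRNAs). Its deposited values are described here isoform by isoform in MDA-MB-231 cells and in MDA-MB-231-P3 cells. The members are all rows of the series table whose name before the final number is GAS5. They make up 58 of the 104786 isoform rows listed, and 1 of 46902 lncRNA genes. GAS5 was chosen by its summed FPKM in these 4 libraries, which did not lie lower in the subline as those of most other snoRNA hosts did. Its levels in this comparison are therefore a description and carry no test.

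MDA-MB-231 is an established human line of triple-negative breast cancer. MDA-MB-231-P3 is a subline of it, selected for growth in the lung: cells were injected into mouse tail veins, recovered from lung tumours, expanded in culture and injected again, in repeated rounds. The parent and the subline are each represented by 2 libraries of cultured cells with no further treatment named, 4 libraries in all, and the labels name 1 subline and no second independent selection. Whether libraries of one line are separate cultures is not said, so any spread between them may be technical. In such bulk samples, fewer cells that make an RNA and less of it per cell cannot be told apart. Values are FPKM, fragments relative to transcript length and to all mapped fragments, from strand-specific sequencing of the mRNA fraction, and the read depth behind them is unknown.

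The RNA of a snoRNA host gene is spliced, and snoRNAs are then trimmed out of its released introns, while the joined exons remain as a lncRNA. Box C/D snoRNAs guide the methylation of ribosomal RNA. The exons of GAS5 hold no long open reading frame, its transcript belongs to the class that starts with a run of pyrimidines (a 5′ terminal oligopyrimidine tract, shared with ribosomal protein mRNAs), and it is degraded when it is translated. GAS5 is known for building up in cells whose growth is arrested and for binding the glucocorticoid receptor as a decoy.

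In GENCODE release 44 on GRCh37, the sequence of hg19, GAS5 spans chr1:173827697-173838020 on the minus strand. It has 91 annotated transcripts of 427 to 3145 bases, with a median of 731 bases. The transcript marked as canonical has 12 exons, 11 introns and 768 bases. Of the 91 transcripts, 84 start within 10 bases of its first base at 173837127. RefSeq places 11 snoRNA genes within GAS5, 10 of them of the SNORD class (box C/D): SNORD74, SNORD75, SNORD76, SNORD77, SNORD44, SNORD78, SNORD79, SNORD80, SNORD47 and SNORD81. None of the 11 had a row in the lncRNA table, so the snoRNAs themselves were not measured here. SNORD78, in intron 6 of the canonical transcript at chr1:173834760-173834824 (minus strand, GRCh37), shows what such an intron releases. In its sequence the capitals mark the letters TGATG near the start, which belong to box C, and CTGA near the end, which is box D.
SNORD78: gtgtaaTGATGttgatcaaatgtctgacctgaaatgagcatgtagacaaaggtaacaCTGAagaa

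The first bases of GAS5 carry the feature that it shares with several hosts it is compared with. The next lines give 50 bases around the annotated first base of canonical transcripts, 20 before it and 30 from it onward, on the sense strand of GRCh37. Capitals mark an unbroken run of at least 5 bases that are C or T and that reaches within 3 bases of the first base. The windows are chr1:173837098-173837147 for GAS5, chr20:47895159-47895208 for ZFAS1, chr17:74553837-74553886 for SNHG16, chr4:119199843-119199892 for SNHG8 and chr6:86388437-86388486 for SNHG5, which lacks such a run. They were chosen after the values were seen.
GAS5: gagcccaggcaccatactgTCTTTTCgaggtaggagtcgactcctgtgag
ZFAS1: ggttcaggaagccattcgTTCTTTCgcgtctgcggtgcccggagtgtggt
SNHG16: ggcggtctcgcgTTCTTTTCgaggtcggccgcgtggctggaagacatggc
SNHG8: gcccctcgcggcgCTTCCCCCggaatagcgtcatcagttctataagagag
SNHG5: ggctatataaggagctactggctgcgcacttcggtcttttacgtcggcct
Such a run was present at 25.3% of the 55064 canonical starts of all annotated genes and at 29.0% of those of lncRNA genes. A match describes letters at an annotated start and not the start used in these cells.

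Summed over its rows, GAS5 was listed at 1073 and 932 FPKM in the MDA-MB-231 libraries and at 1132 and 1207 FPKM in the MDA-MB-231-P3 libraries. Both subline libraries lay above both parental ones, but the gap between the groups was smaller than the gap between the 2 parental libraries. The parental mean was 1002 ± 99.4 FPKM and that of the subline 1169 ± 53.1 FPKM (SD, n = 2 each), a 1.17-fold difference. On the log2(FPKM + 0.5) scale the difference was 0.22 (SE 0.28, from the limma fit across all summed genes), smaller than its standard error. GAS5 ranked between 32 and 40 among all summed genes in each library. Placing both subline libraries above both parental ones was common: 28.9% of the 6444 tested genes did so, and 21.4% showed the opposite order.

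**Figure D1:**
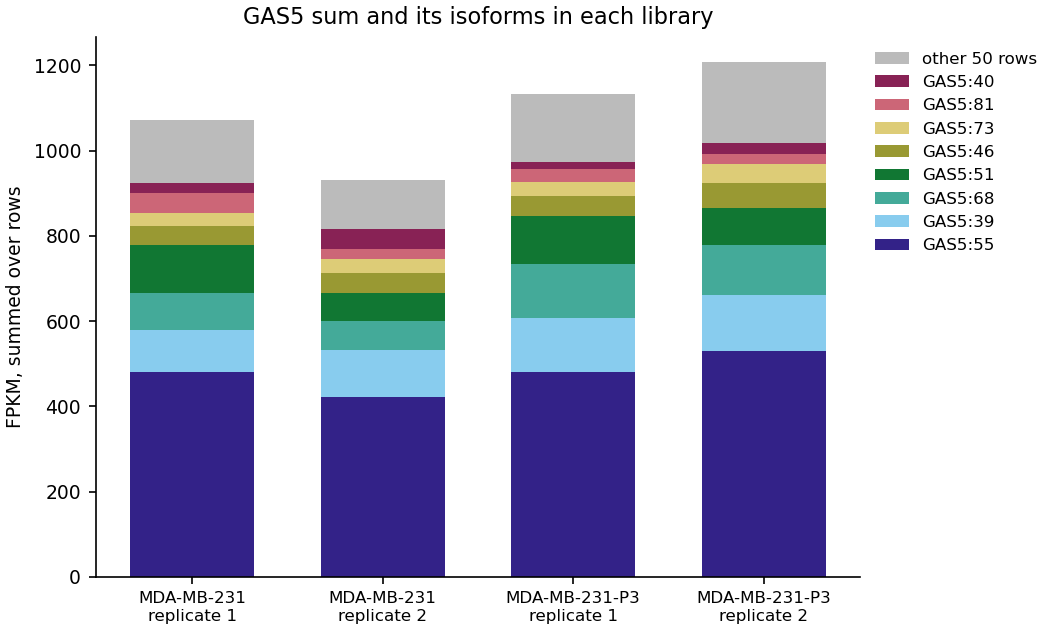
Summed FPKM of GAS5 in each of the 4 libraries (bars, starting at 0), divided into the 8 isoforms of highest mean and the other 50 rows. GAS5:55 is the largest block in all 4 libraries, and the total runs from 932 to 1207 FPKM.

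The sum rested on few rows. GAS5:55 was listed at 479 and 423 FPKM in parental cells, against 479 and 530 FPKM in subline cells. It was the most abundant GAS5 isoform in all 4 libraries and held 44.7% and 45.3% of the parental sums and 42.4% and 43.9% of the subline sums. The groups overlapped by a very small margin, since the higher parental value was 479.421 and the lower subline value 479.413 FPKM. The parental mean was 451 ± 40.1 FPKM and the subline mean 505 ± 35.6 FPKM (SD, n = 2 each), with a log2 difference of 0.16 (SE 0.30). The difference in its share of the sum, subline minus parent, was -1.89 percentage points.

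GAS5:39 was second, with 101 and 109 FPKM in parental cells, against 127 and 132 FPKM in subline cells. Both subline values lay above both parental ones, with means of 105 ± 5.83 and 129 ± 3.22 FPKM (SD, n = 2 each) and a log2 difference of 0.31 (SE 0.29). GAS5:68 followed, with 84.9 and 69.7 FPKM in parental cells, against 128 and 117 FPKM in subline cells. The means were 77.3 ± 10.7 and 123 ± 7.83 FPKM (SD, n = 2 each), 1.59-fold higher in the subline, with a log2 difference of 0.67 (SE 0.31). Its share of the GAS5 sum was 2.82 percentage points higher in the subline, the largest gain in share among the 58 rows.

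Relative to its level, GAS5:51 differed most between libraries of a line among the 4 leading isoforms. It was listed at 114 and 65.4 FPKM in parental cells, against 111 and 85.9 FPKM in subline cells. The 2 lines overlapped, and the log2 difference was 0.17 (SE 0.42). GAS5:46 was listed at 43.4 and 46.1 FPKM in parental cells, against 47.0 and 59.1 FPKM in subline cells. GAS5:73 followed at 30.4 and 32.3 FPKM, against 32.7 and 44.7 FPKM. For both, the groups were separated by a narrow margin, set by the first subline library.

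A few isoforms went the other way. GAS5:40 was listed at 22.5 and 47.5 FPKM in parental cells, against 16.1 and 26.8 FPKM in subline cells, and GAS5:81 at 47.2 and 23.1 FPKM against 31.4 and 23.4 FPKM. In both, the parental libraries differed from each other more than the lines did and the groups overlapped, and the parental library that was high for GAS5:81 was the low one for GAS5:40. The log2 differences were -0.64 (SE 0.52) and -0.28 (SE 0.47), and that of GAS5:81 turned to 0.12 with each library rescaled to the same total and to 0.23 without MDA-MB-231 replicate 1. GAS5:13 was listed at 10.9 and 5.59 FPKM in parental cells, against 4.94 and 0.422 FPKM in subline cells, without overlap.

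**Figure D2:**
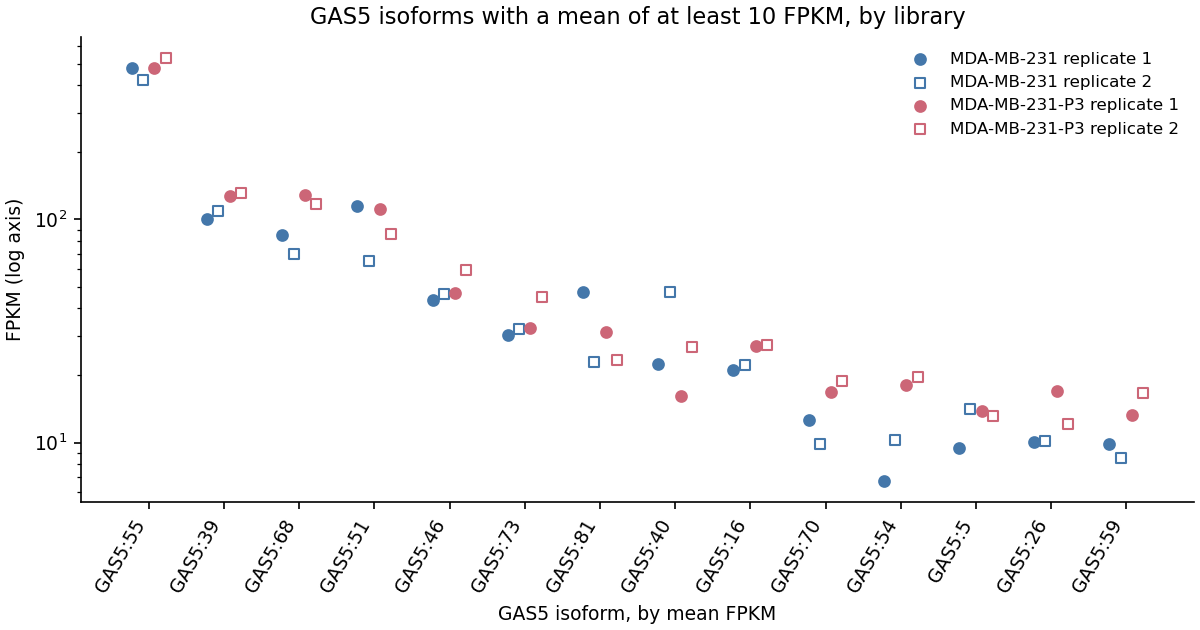
FPKM (log axis) of the 14 GAS5 isoforms with a mean of at least 10 FPKM, 1 point per library (blue, MDA-MB-231; red, MDA-MB-231-P3; filled circles, replicate 1; open squares, replicate 2). Both red points lie above both blue points for 9 of the 14, and for none of them do both lie below. Among all tested isoforms, which include those with lower means, 27.3% and 20.7% do so.

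The 9 isoforms described so far held 86.4% of the mean GAS5 sum. The other 49 had means of at most 24.5 FPKM and together reached 139 and 111 FPKM in parental cells, against 154 and 188 FPKM in subline cells. Among them, GAS5:54 was listed at 6.74 and 10.2 FPKM in parental cells, against 18.1 and 19.8 FPKM in subline cells, 2.23-fold higher on average. GAS5:58 reached 2.21 and 3.72 FPKM in parental cells, against 8.39 FPKM in both subline libraries. GAS5:45 was listed near 0 in both parental libraries (0.00668 and 2.16e-05 FPKM) and at 0.957 and 1.13 FPKM in the subline. These 3 were singled out after their values were seen, and their log2 differences were 1.14 (SE 0.34), 1.40 (SE 0.35) and 1.62 (SE 0.48). That of GAS5:45 was set largely by the pseudocount: it was 3.47 with a pseudocount of 0.1 and 1.03 with 1, and it was 2.74 with each library rescaled to the same total.

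The rest of the isoforms with a mean of at least 10 FPKM differed in the size of their steps. GAS5:16 reached 21.3 and 22.2 FPKM in parental cells, against 27.0 and 27.4 FPKM in subline cells. GAS5:70 reached 12.6 and 9.87 FPKM, against 16.8 and 18.9 FPKM, and GAS5:59 reached 9.89 and 8.49 FPKM, against 13.3 and 16.6 FPKM. GAS5:26 reached 10.05 and 10.13 FPKM, against 17.1 and 12.1 FPKM. None of these 4 overlapped between the lines: both subline libraries lay above both parental ones, as for 27.3% of all tested isoforms. GAS5:5 did overlap, with 9.49 and 14.2 FPKM against 13.9 and 13.1 FPKM.

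Several minor rows were high in one library of a line and near 0 in the other. GAS5:71 was listed at 6.34 and 2.79 FPKM in parental cells, against 0.000283 and 6.58 FPKM in subline cells. GAS5:69 was listed at 6.03 and 0.0171 FPKM, against 3.10 and 6.39 FPKM, and GAS5:80 at 3.01 and 2.96e-08 FPKM, against 0.672 and 5.51 FPKM. In these rows, libraries of the same line differed more than the lines did.

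Of the 58 rows, 34 had a mean of at least 0.5 FPKM and entered the fit. The other 24 were never above 0.869 FPKM in any library, and 9 rows stayed under 0.001 FPKM in all 4. The threshold fell between GAS5:45, with a mean of 0.524 FPKM, and GAS5:50, with 0.440 FPKM. A row at or near 0 can be a failed split of reads among overlapping isoforms and need not mean an absent RNA. Of the 34, 23 had a positive and 11 a negative log2 difference. Their median was 0.29, beside 0.09 over all 8432 tested isoforms. Both subline libraries lay above both parental ones for 12 (35.3%) and below them for 2, GAS5:13 and GAS5:82 (5.88%), where 27.3% and 20.7% of all tested isoforms did so. In limma's test over all isoforms 0 of the 34 passed an adjusted p of 0.05, as did 0% of all tested isoforms, of which 1124 had an unadjusted p under 0.05. As the rule used this comparison, nothing is read from these shares.

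Abundant GAS5 isoforms were mostly positive and agreed better between libraries of a line. Of the 14 isoforms with a mean of at least 10 FPKM, 12 had a positive difference (median 0.29), and the exceptions were GAS5:40 and GAS5:81. Of the 20 with lower means, 11 were positive and 9 negative (median 0.22), and libraries of the same line differed more: the higher replicate was typically 2.21 times the lower in the parent and 2.43 times in the subline (medians), against 1.19 times in both lines for the abundant isoforms. Single rows under 10 FPKM are therefore given little weight here. Of all 605 tested isoforms with a mean of at least 10 FPKM, 269 were positive. GAS5 was chosen by the sum that its rows make up, so nothing is read from its 12 of 14.

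The question posed by GAS5 is which isoforms keep its sum from lying lower in the subline. In FPKM, 35 rows gained a total of 203 and 23 rows had negative differences adding up to -35.8, leaving a net gain of 167 FPKM. GAS5:55 gained 53.6, GAS5:68 gained 45.4 and GAS5:39 gained 24.8 FPKM, together 61.1% of all gains. The most negative differences were those of GAS5:40, GAS5:81 and GAS5:13, at -13.5, -7.74 and -5.58 FPKM.

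**Figure D3:**
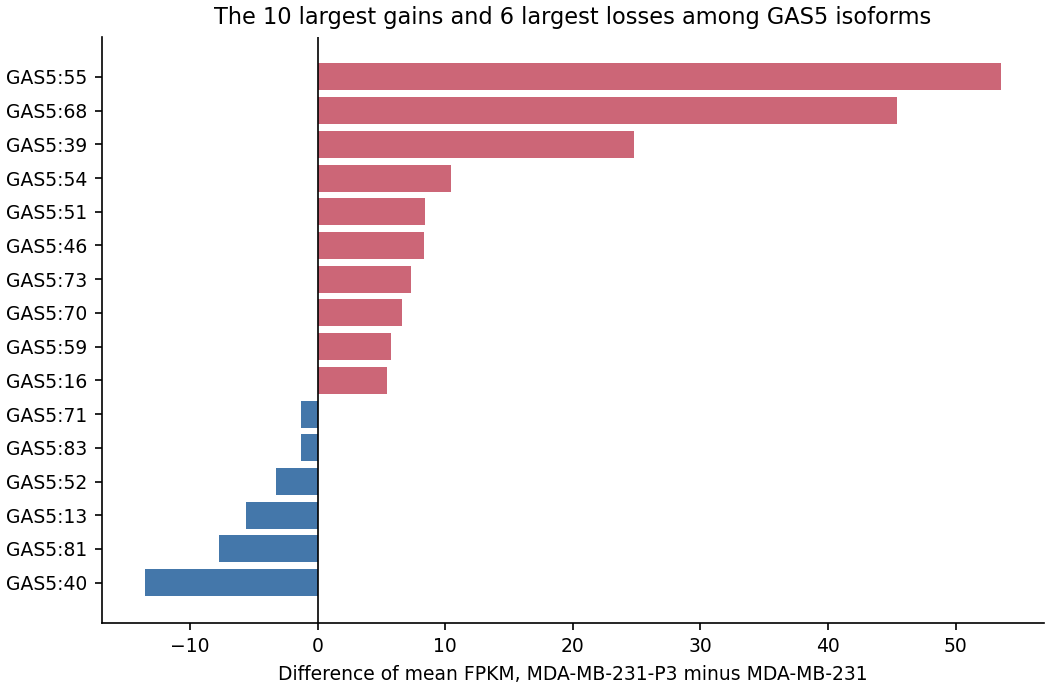
Difference of mean FPKM between MDA-MB-231-P3 and MDA-MB-231 for the 10 GAS5 isoforms with the largest gains (red) and the 6 with the largest losses (blue). GAS5:55, GAS5:68 and GAS5:39 gain 53.6, 45.4 and 24.8 FPKM, and the most negative difference is -13.5 FPKM.

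No single gain was as large as the net difference, so taking out 1 row could not turn its sign. With any 1 of the 58 rows taken out, the log2 ratio of the remaining sum stayed between 0.18 (without GAS5:68) and 0.27 (without GAS5:55), beside 0.22 with all rows. With GAS5:55, GAS5:68 and GAS5:39 all taken out, it was 0.16.

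The shares of the isoforms were correspondingly steady. As a measure, the percentage of the GAS5 sum that is listed under other isoforms in one library than in another was taken for each pair of libraries. It was 10.4% between the 2 parental libraries, 7.45% between the 2 subline libraries and 7.69% to 10.2% in the 4 pairs that cross the lines. The isoform makeup of GAS5 thus differed across the lines by no more than within the parental pair. Over the 24 other hosts tested, the same measure between lines had a median of 17.1%, and 19 of them had a higher value than GAS5. Abundance and the number of rows differ between hosts and move this measure, so the values are given side by side as a description.

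**Figure D4:**
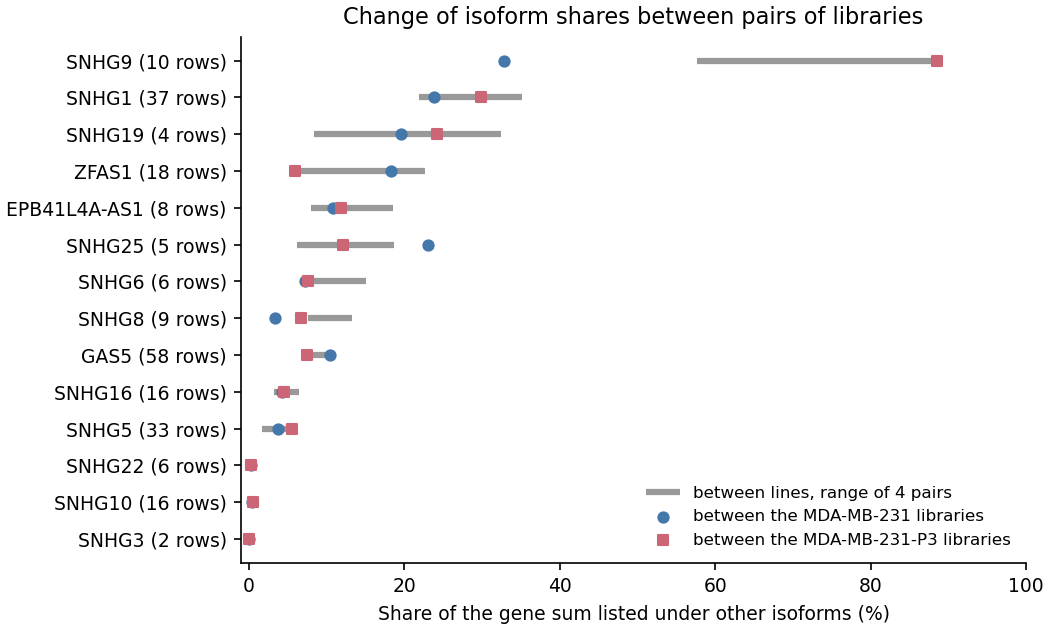
Percentage of a gene's summed FPKM that is listed under other isoforms in one library than in another, for GAS5 and the other snoRNA hosts with a mean of at least 100 FPKM. Blue points compare the MDA-MB-231 libraries, red squares the MDA-MB-231-P3 libraries, and grey bars span the 4 pairs between lines; for GAS5 all lie between 7.45% and 10.4%.

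The other snoRNA hosts were taken from a list of 34 names, 26 of which had rows. Apart from GAS5, 24 reached the mean of 0.5 FPKM, and SNHG18 did not. Their log2 differences had a median of -0.54, with 21 negative and 3 positive, beside a median of 0.09 over all 6444 genes. Those genes were not matched to the hosts for abundance. Among isoforms, the median was 0.09 over all tested and -0.14 over the 605 with a mean of at least 10 FPKM. With each library rescaled to the same total, 18 of the 24 were negative. Both subline libraries lay below both parental ones for 19 of the 24, where 21.4% of all tested genes did so, and above them for 1. None of the 24 passed limma's test over all genes (smallest adjusted p = 0.268), in which 0.0621% of the 6444 summed genes were called. The difference of GAS5 stood 0.77 (log2) above the median of the other hosts and 0.13 above that of all genes. Of the 24, SNHG27 was the one host above GAS5, here and under each scaling tried, and it was listed at only 0.405 and 0.185 FPKM in parental cells, against 1.28 and 1.68 FPKM in subline cells.

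**Figure D5:**
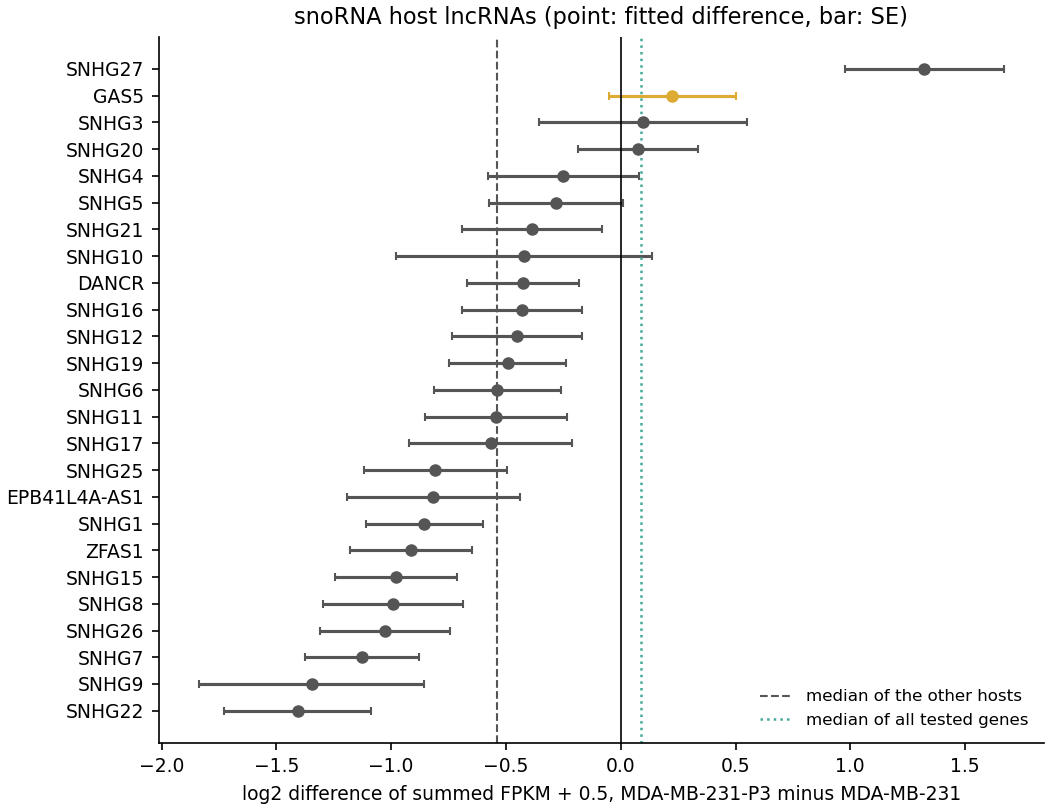
Log2 difference of summed FPKM + 0.5 (MDA-MB-231-P3 minus MDA-MB-231, points) with its standard error (bars) for GAS5 (yellow) and 24 other snoRNA hosts (grey). GAS5 is at 0.22, the median of the other hosts (dashed) at -0.54 and that of all tested genes (dotted) at 0.09.

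How far each isoform stood from the course of the other hosts can be put in FPKM. Had GAS5 followed the median of the other hosts, its subline mean would have been 689 FPKM, and the observed mean was 480 FPKM above that. GAS5:55 alone stood 195 FPKM above the 310 FPKM it would have had, more than any other row. It was followed by GAS5:68 at 69.6 FPKM and GAS5:39 at 57.5 FPKM above. Such an excess grows with the level of a row, so the place of GAS5:55 goes with its abundance. Its log2 difference was 0.16, and the difference in its share of the sum was -1.89 percentage points. Of the 34 tested GAS5 isoforms, 29 had a log2 difference above the host median. Among the 14 with a mean of at least 10 FPKM only GAS5:40 did not. Standing above it was common, since only 19.4% of all tested summed genes lay below that median. Nothing is read from this count.

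GAS5 is best set beside hosts of like abundance. SNHG5, the host of U50 snoRNAs, was listed at 1294 and 1010 FPKM in parental cells, against 934 and 945 FPKM in subline cells. Its log2 difference was -0.28 (SE 0.29), and turned to 0.17 with quantile normalization and 0.12 with rescaling to the same total. SNHG8 was listed at 1487 and 1088 FPKM in parental cells, against 629 and 648 FPKM in subline cells, with a log2 difference of -0.99 (SE 0.30). ZFAS1, which hosts box C/D snoRNAs and lies antisense to ZNFX1, was listed at 1102 and 1084 FPKM in parental cells, against 608 and 554 FPKM in subline cells, with a log2 difference of -0.91 (SE 0.27). GAS5 was thus below SNHG5, SNHG8 and ZFAS1 in both parental libraries and above all 3 in both subline libraries. Its place among the 25 tested hosts was 6 in each parental library and 3 in each subline library.

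The 2 most abundant hosts did not separate the lines. SNHG3 was listed at 24621 and 45509 FPKM in parental cells, against 40522 and 31704 FPKM in subline cells, and SNHG10 at 1790 and 3466 FPKM against 1279 and 2699 FPKM. In both, libraries of one line differed more than the lines did. Relative to the median level of the 24 other hosts in the same library, GAS5 stood at 8.31 and 6.90 times in the parent and at 15.5 and 18.7 times in the subline.

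The sums are made of the isoforms, so values by isoform describe the same difference and add no separate support. The 24 hosts had 192 tested isoforms, of which 129 had a negative and 63 a positive difference, with a median of -0.39. Both subline libraries lay below both parental ones for 39.1% of them and above them for 12.5%, beside 20.7% and 27.3% of all tested isoforms. Of the 54 with a mean of at least 10 FPKM, 44 were negative (median -0.53), where 12 of 14 GAS5 isoforms were positive. All 605 isoforms at this level had a median of -0.14, and 269 of them were positive. GAS5:55 led in all 4 libraries, and 13 of the 24 other hosts also kept the same leading isoform in all 4. The most abundant isoform of a host had a negative difference for 20 of the 23 hosts in which it was tested. For example, SNHG8:17 was listed at 1233 and 883 FPKM in parental cells, against 463 and 452 FPKM in subline cells, and ZFAS1:22 at 478 and 659 FPKM against 384 and 327 FPKM.

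Hosts with and without a pyrimidine run at the annotated start both lay lower. Of the 24 other hosts, 10 carry such a run and all 10 had both subline libraries below both parental ones (21.4% of all tested genes did), with differences of -1.13 to -0.43 (median -0.69). Of the 14 without it, 11 had a negative difference and 9 lay below without overlap (median -0.46). The split goes by the annotated start, and these 14 include SNHG3, SNHG5 and SNHG6, described early as having oligopyrimidine starts. GAS5 carries the run and was not among the lower ones. Of the hosts described early as having oligopyrimidine starts, SNHG1, SNHG5 and SNHG6 had a negative difference as deposited, that of SNHG5 turning positive with quantile normalization and rescaling, while SNHG3 had a positive one. Their median was -0.41.

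The lncRNAs most like GAS5 over the 4 libraries were sought among 103 other genes with a mean of at least 100 FPKM. The measure was the mean absolute difference of log2(FPKM + 0.5), after each gene was centred on its own mean. The closest was lnc-POTEG-14 (mean absolute difference 0.0380), listed at 218 and 193 FPKM in parental cells, against 242 and 236 FPKM in subline cells. It was followed by FGD5-AS1 (0.0553), lnc-CSE1L-4 (0.0913), lnc-ARF6-1 (0.0915) and TCONS_00000004 (0.139). No host from the list was among these 5. GAS5 was chosen for differing from most hosts over these same libraries, so nothing is read from their absence. A name such as lnc-POTEG-14 refers to a neighbouring gene and not to a function.

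At the GAS5 locus itself, the antisense lncRNA GAS5-AS1 lies within the span of GAS5 on the plus strand. Its 2 rows summed to 1.22 and 0.754 FPKM in parental cells, against 1.02 and 1.19 FPKM in subline cells, overlapping groups at a level far below GAS5. The lncRNA lnc-KLHL20-3 was picked by its name, which refers to a neighbouring protein-coding gene, and its position was not checked. Its values were 0.790 and 0.463 FPKM in parental cells, against 2.30 and 1.26 FPKM in subline cells. Its log2 difference of 0.99 (SE 0.38) did not pass the test (limma adjusted p = 0.332).

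The size of the GAS5 difference, though not its sign, moved with the scaling of the libraries. The rows of the whole table summed to 460282 and 500086 FPKM in the parent and to 351135 and 372689 FPKM in the subline. In each library the 10 highest rows held 67.7% to 72.7% of the total, so these totals rest largely on few rows. GAS5 made up 0.233% and 0.186% of the parental totals and 0.322% and 0.324% of the subline totals. Rescaling to the same total raised the median difference of all genes from 0.09 to 0.45 and that of GAS5 to 0.63, which is 0.18 above the median gene. With quantile normalization GAS5 differed by 0.68, and the median gene by -0.03. Centring on the median log2 ratio lowered the GAS5 difference to 0.14. FPKM divides by transcript length, and the annotated transcripts of GAS5 differ in length by 7.37 times, so a sum over isoforms is not a sum of molecules and also depends on how reads were split among overlapping rows. The 7 marker genes of epithelial, mesenchymal, blood, endothelial and stromal cells that were searched by name are protein-coding and had 0 rows, so the labelled cell type could not be checked in this lncRNA table.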

How the data were processed

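RNA of the mRNA fraction was sequenced as strand-specific paired-end libraries, 2 from MDA-MB-231 and 2 from MDA-MB-231-P3. Per the labels' protocols, the authors aligned reads to hg19 with HISAT2 and deposited FPKM. The submitters' processing notes also name StringTie. Not given in the sources used here: versions, the lncRNA annotation and how reads were split among isoforms. The 4 per-sample files equalled the series table.

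Rows were summed per name before the final number. Features with a mean of at least 0.5 FPKM were put on the log2(FPKM + 0.5) scale and fitted by limma 3.58.1 under R 4.3.3 (intensity trend, two-sided, subline minus parent, Benjamini-Hochberg adjustment over all features, threshold 0.05), isoforms and sums separately. The fit was tested on simulated data. The members, lists and alternatives were chosen with earlier results of these data known. GAS5 isoforms were described in full if among the 8 of highest mean or the 3 largest gains or losses. Hosts were named by abundance, others after their values were seen. The genes most like GAS5 were the 5 closest. Annotation was GENCODE release 44 on GRCh37, with snoRNA names and placement from RefSeq (GRCh38.p14). Isoform numbers could not be matched to annotated transcripts, so no isoform sequences are shown. Python 3.11.15, pandas 2.3.3, numpy 2.4.6 and matplotlib 3.10.9 were used. Alternatives were other pseudocounts, filters and scalings, no trend, a replicate block and leaving out each library. A further result at the GAS5 locus is not reported here.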

Additional observations from a re-analysis of the deposited data

How the results depend on the processing

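The GAS5 difference of 0.22 was positive in every alternative tried. As both subline sums lay above both parental ones, leaving out 1 library could not turn its sign, and neither could the replicate block. The difference was 0.14 with centring on the median log2 ratio, 0.68 with quantile normalization and 0.63 with rescaling to the same total. With rescaling to the total without the 10 rows of highest mean (chosen after seeing the data) it was 0.47. Without single libraries it was 0.12 to 0.33, lowest without MDA-MB-231 replicate 2. The median of the other hosts, -0.54, was -0.63, -0.43, -0.14 and -0.30 under the same 4 scalings and -0.70 to -0.48 without single libraries. GAS5 minus that median, 0.77, was 1.11 after quantile normalization and ranged from 0.60 to 1.03 with 1 library left out. The share difference of GAS5:55, -1.89 points, was -2.66 to -1.12 without single libraries. Of the 34 tested GAS5 isoforms, 18 kept their sign in all 10 alternatives (15 positive, 3 negative) and 16 did not, GAS5:51 and GAS5:81 among them. The replicate block could not turn any sign. Leaving out 1 library could not do so for rows whose groups did not overlap. The count of called isoforms, 0, was 6 with a minimum of 1 FPKM and 6 with rescaling, and 0 to 0 without single libraries. The 4 called genes became 0 with a pseudocount of 1, 0 without the filter, 0 without the trend, 2 with quantile normalization, 6 with rescaling and 0 to 0 without any single library. For all of these the cause was not tested. With 1 library left out, its remaining partner is taken to vary as much as the libraries of the opposite line.

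With the replicate number as a block, the GAS5 difference was 0.22, which such a block cannot change in this layout, with 0 isoforms and 0 genes called. Same-numbered libraries deviated together only weakly (r = 0.0777 over 6444 summed genes), and the labels give no pairing, so the numbers are not taken to pair the libraries. Unknown depth limits the precision of rows of low FPKM.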
